A study of Homo sapiens with 60 samples.

Results

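The 10 genes described here belong to autophagy and to the TFEB axis that feeds it: the cargo receptor SQSTM1, the ATG8-family members MAP1LC3B, GABARAPL1 and GABARAPL2, the initiating kinase ULK1, the PI3P-binding protein WIPI1, the class III PI3-kinase subunit BECN1, the conjugation protein ATG5, the transcription factor TFEB and its target RRAGD. They are named by symbol, by a rule that uses no measured value, and were looked up in the 60675 genes of the count table. All 10 were found and all 10 were among the 17129 genes that passed the filter on low counts. On GRCh38 (GENCODE 29 gene bounds), SQSTM1 lies at chr5:179806398-179838078, MAP1LC3B at chr16:87383995-87404779, ULK1 at chr12:131894651-131923167 and GABARAPL1 at chr12:10212458-10223130, all on the plus strand. On the minus strand lie WIPI1 at chr17:68420948-68457513, BECN1 at chr17:42810134-42833350, TFEB at chr6:41683978-41736259 and RRAGD at chr6:89364636-89412270.

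A549, an established human lung carcinoma line that is known to lack functional KEAP1 and STK11, was treated for 24 h, and its RNA was sequenced in 60 libraries, 3 in each of 20 groups. The treated groups were wortmannin at 10 µM, a PI3-kinase inhibitor used as positive control, and water extracts of 6 crude drugs at 3 doses. Ginger rhizome came as Zingiberis Rhizoma Recens (ZRR) and as Zingiberis Rhizoma (ZR), at 20 (low), 100 (medium) and 500 (high) µg/mL. The same doses were used for Pinelliae Tuber (PT), from Pinellia, and for jujube fruit, Zizyphi Fructus (ZF). Skullcap root, Scutellariae Radix (SR), had doses of 9.2, 46 and 230 µg/mL. Goldthread rhizome, Coptidis Rhizoma (CR), had doses of 5.2, 26 and 130 µg/mL. The 3 vehicle libraries came from cells given DMSO, at 0.1% in the sample labels and 2% in the series' design text. No DMSO content is labelled for the treated groups, and what DMSO adds to the comparisons against vehicle was not tested. Where the IC20 of an extract was below 500 µg/mL it set the high dose, according to the design text, and steps down were 5-fold for every extract. The high doses of SR and CR are therefore not matched with those of the other extracts, and their values stand side by side below without a test between extracts at a matched dose.

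Autophagy encloses cytoplasm in a double membrane and delivers it to the lysosome. The ULK1 complex starts it, the class III PI3-kinase complex with BECN1 makes PI3P, WIPI proteins read that lipid, and ATG5 helps to attach lipid to the ATG8 proteins (the LC3 and GABARAP families), to which receptors such as SQSTM1 bind. TFEB switches on lysosomal and autophagy genes that carry the CLEAR motif, and mTORC1 holds it in the cytoplasm with the help of Rag GTPases such as RRAGD, which is itself a TFEB target. SQSTM1 is also a known target of NRF2, the factor that KEAP1 restrains. Wortmannin blocks the class III enzyme that makes PI3P as well as the class I enzymes. All values here are RNA levels, which do not measure autophagic flux, protein or the place of TFEB in the cell.

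Libraries held 17420400 to 36479600 estimated counts each, and replicates correlated at 0.979 or above in log2 CPM (CPM being counts scaled to library size, adjusted by TMM). The TMM factors were 0.889, 0.908 and 0.939 at CR low and 0.908, 0.939 and 0.946 at CR medium. They were 1.01, 1 and 1.005 at CR high and 1.015, 1.021 and 1.009 in vehicle, and no other group had one below 0.978. A lower factor raises the CPM of every gene in its library. The epithelial keratins KRT8 and KRT18 had medians of 3290 and 2500 CPM. The defining alveolar type II markers SFTPC, SFTPB and NKX2-1 did not exceed 0.184, 0.327 and 0.0847 CPM, and SFTPA1 was at 0 throughout. Of the blood and stromal markers, CD14 and COL3A1 reached medians of 1.72 and 1.59 CPM and the other 8 had medians of at most 0.131 CPM. How steeply log2 CPM climbed with the log2 length of transcripts, a slope computed per library, averaged 0.195 to 0.338 in the treated groups and 0.324 in vehicle, and was lower in every extract group than in vehicle. Nothing in the labels says that replicates came from separate cultures, so p-values measure the spread between these libraries, which may be technical. Fewer cells and less RNA per cell cannot be told apart in such bulk samples.

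The 10 genes lay far apart in level. In vehicle, per kilobase of the longest annotated transcript, SQSTM1 stood at 264.5 CPM per kb, ULK1 at 22.7, MAP1LC3B at 21.9, GABARAPL2 at 19.8, BECN1 at 16.1, ATG5 at 11.0 and GABARAPL1 at 9.58 CPM per kb. WIPI1 (2.21 CPM per kb), TFEB (1.32 CPM per kb) and RRAGD (0.351 CPM per kb) were the least abundant. The scarce genes varied more between replicates, with a median coefficient of variation of 3.06% for SQSTM1, 8.39% for TFEB, 10.5% for WIPI1 and 15.2% for RRAGD. Across the 20 group means, WIPI1 had the widest range (2.26-fold between its highest and lowest group) and ATG5 the narrowest (1.19-fold). Over all 20 groups, 8 of the 10 genes differed at an adjusted p under 0.05 (edgeR's quasi-likelihood test, Benjamini-Hochberg adjustment), the exceptions being GABARAPL2 (adjusted p = 0.0796) and ATG5 (adjusted p = 0.456). The same test called 52.0% of all genes tested. Among the 6 high doses 7 of 10 differed, against 40.9% of all genes tested, and RRAGD joined the exceptions (adjusted p = 0.754).

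**Figure D1:**
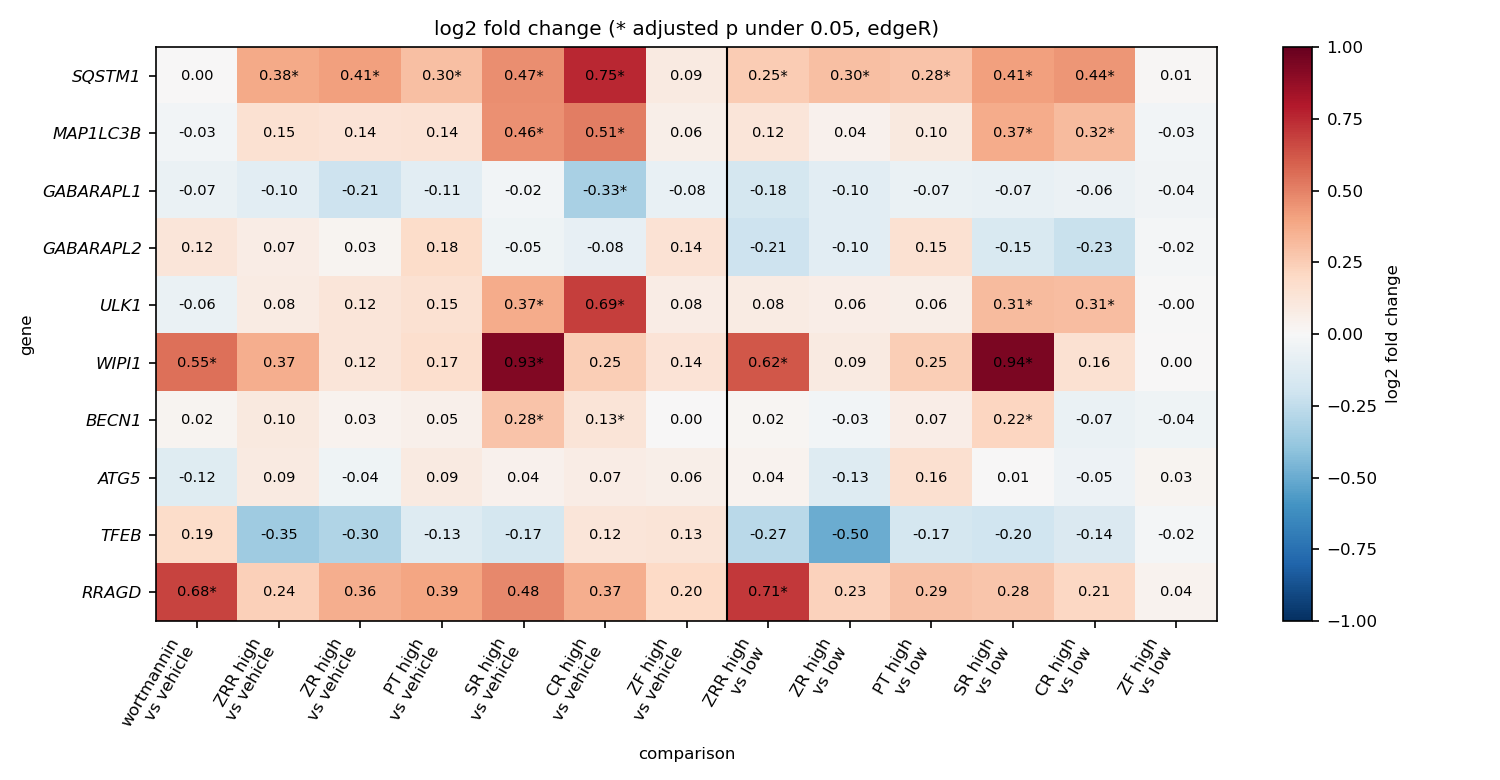
Log2 fold changes of the 10 genes (down the page) in 13 comparisons (across): wortmannin and each high dose over vehicle, and, right of the line, each high dose over the low dose of the same extract. Colour and number give the log2 fold change and an asterisk marks an adjusted p under 0.05 in edgeR. SQSTM1 is starred in 10 of the 13 columns and GABARAPL2, ATG5 and TFEB in 0.

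SQSTM1 encodes p62, which binds ubiquitin on cargo and LC3 on the growing membrane. It was the member called in the most comparisons, rising at the high dose of 5 of the 6 extracts. At the CR high dose it had 1334, 1315 and 1344 CPM, against 766, 789 and 815 CPM in vehicle. SR high libraries had 1085, 1051 and 1134 CPM, and ZR high libraries had 1024, 1048 and 1078 CPM. Every one of these libraries lay above every vehicle library, as did those of ZRR high (1048, 1028 and 1009 CPM) and PT high (956, 1018 and 942 CPM). The log2 fold change over vehicle was 0.75 ± 0.0526 (SE) for CR, 0.47 ± 0.0524 for SR, 0.41 ± 0.0524 for ZR, 0.38 ± 0.0524 for ZRR and 0.30 ± 0.0524 for PT, with adjusted p of 1.09e-16, 9.63e-10, 1.19e-07, 9.12e-07 and 4.06e-04 in edgeR. ZF high libraries had 814, 911 and 803 CPM and overlapped vehicle (log2 fold change 0.09 ± 0.0523, adjusted p = 0.499). Wortmannin libraries had 838, 764 and 772 CPM and overlapped vehicle too, with a log2 fold change of 0.00 and a 95% interval of -0.10 to 0.11.

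High and low libraries of an extract share the first number of the sample code. Between an extract and vehicle that number cannot be told apart from treatment. Wortmannin and vehicle libraries share it, with a letter A before it in the vehicle codes alone. The titles of all libraries, vehicle and treated, carry the same batch label, Second_BatchA. SQSTM1 rose for high against low in CR (log2 fold change 0.44, adjusted p = 3.10e-09), SR (0.41, adjusted p = 2.12e-08), ZR (0.30, adjusted p = 9.05e-05), PT (0.28, adjusted p = 1.24e-03) and ZRR (0.25, adjusted p = 1.32e-03), each by edgeR and with all high libraries above all low ones. For ZF the difference was 0.01, with libraries that overlapped. The call for PT rested on PT high replicate 2 (adjusted p = 0.0544 without it) and that for ZRR on ZRR low replicate 1 (adjusted p = 0.0567 without it). With only the 6 libraries of the 2 doses in the fit, the ZRR, ZR and PT calls were lost (adjusted p = 0.169, 0.316 and 0.147), and PT high against vehicle was lost in the same way (adjusted p = 0.118). The log2 fold changes between doses were then 0.25, 0.29 and 0.28. Such fits called fewer of all genes too: 114 of 15298, 64 of 15403 and 26 of 15665 between doses, against 715, 795 and 94 of 17129. For PT high against vehicle they called 26 of 15616, against 240 of 17129.

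The course over the doses differed between extracts. From vehicle through low, medium and high, mean SQSTM1 was 789.9, 978, 1113 and 1331 CPM with CR, 789.9, 855, 946 and 1049.7 CPM with ZR, 789.9, 863, 922 and 1029 CPM with ZRR, and 789.9, 799.5, 885 and 972 CPM with PT. With SR it was 789.9, 819, 803 and 1090 CPM, so that the low and medium groups overlapped vehicle and the high group stood apart. At medium doses SQSTM1 was called for CR (log2 fold change 0.50, adjusted p = 2.22e-10), ZR (0.26, adjusted p = 6.64e-03) and ZRR (0.22, adjusted p = 0.0425), and at low doses for CR alone (0.31, adjusted p = 3.36e-05). The ZRR medium call was lost in each of the 6 fits that left out a library of either group, and the ZR medium call was lost without vehicle replicate 1 or 2 and without ZR medium replicate 1 or 3. Ordered by mean level over the 20 groups, CR high stood apart from the next group, while each later neighbour overlapped the one before it, down to wortmannin and vehicle at the bottom.

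**Figure D2:**
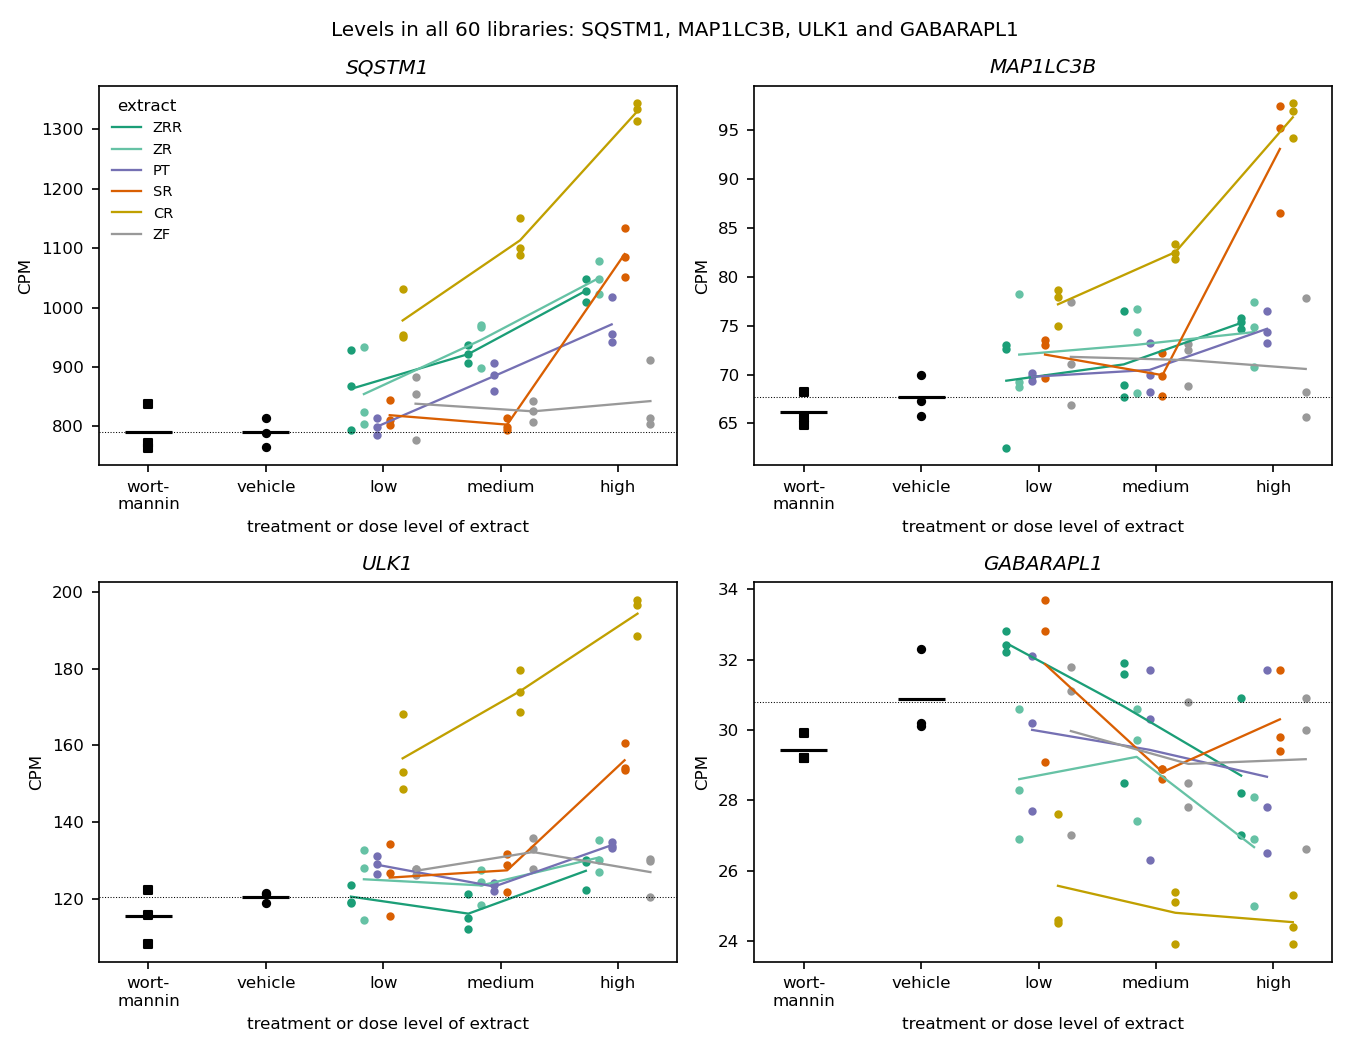
CPM of SQSTM1, MAP1LC3B, ULK1 and GABARAPL1 in every library (points). Squares are wortmannin, black circles vehicle, and coloured points the 3 dose levels of each extract with lines through the group means; bars mark the means of wortmannin and vehicle, the dotted line the vehicle mean, and the axes do not start at 0. CR lies above vehicle at each dose for the first 3 genes and below it for GABARAPL1, and SR rises at its high dose.

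CR moved the same 5 members at each of its 3 doses: SQSTM1, MAP1LC3B, ULK1 and BECN1 rose and GABARAPL1 fell against vehicle, so that 5 of 10 were called at high, medium and low dose. Over all genes tested 35.1% were called at the high dose (18.5% higher, 16.7% lower), 23.2% at the medium and 17.7% at the low dose, so a large share of called members stands in a large response. CPM and calls at CR low and medium include the lower TMM factors of those libraries. The part of that scaling in these calls and in the courses over the CR doses was not tested. ULK1, the kinase that starts autophagy, had 198, 197 and 189 CPM at CR high, against 121, 119 and 121 CPM in vehicle. Its mean over vehicle, low, medium and high was 120.5, 157, 174 and 194 CPM, and the low group already lay wholly above vehicle. The log2 fold change over vehicle was 0.38 ± 0.0488 at the low, 0.53 ± 0.0488 at the medium and 0.69 ± 0.0487 at the high dose (adjusted p = 1.36e-07, 3.28e-12 and 1.61e-16, edgeR).

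MAP1LC3B encodes LC3B, the ATG8 protein commonly used to mark autophagosomes. It had 97.7, 96.9 and 94.2 CPM at CR high, against 65.8, 67.3 and 69.9 CPM in vehicle, groups that did not overlap. Its log2 fold change was 0.19, 0.29 and 0.51 at low, medium and high dose (adjusted p = 0.0188, 1.57e-04 and 3.63e-10, edgeR). GABARAPL1, another ATG8 protein, ran the opposite way, with 24.4, 25.3 and 23.9 CPM at CR high, against 30.2, 30.1 and 32.3 CPM in vehicle. Its log2 fold change was -0.27 at the low, -0.31 at the medium and -0.33 ± 0.0722 at the high dose (adjusted p = 8.23e-03, 1.04e-03 and 2.75e-04). CR high over CR low gave -0.06 for GABARAPL1 with overlapping libraries and was not called (95% interval -0.20 to 0.09).

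At the low dose of CR, MAP1LC3B was not called without vehicle replicate 1, vehicle replicate 2 or CR low replicate 1, GABARAPL1 was not called without CR low replicate 3, and with the length slope as covariate MAP1LC3B and BECN1 were not called.

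BECN1 was the weakest of the 5 at CR high, with 82.8, 86.5 and 87.1 CPM, against 76.9, 76.3 and 81.5 CPM in vehicle (log2 fold change 0.13 ± 0.0508, adjusted p = 0.0446). The adjusted p was 0.0768 in DESeq2, 0.0831 with that tool's size factors in edgeR and 0.195 when low counts were not filtered, and the call was lost in 5 of the 6 fits that left out a library of either group. BECN1 was also lost at CR medium without vehicle replicate 1 or 2 or CR medium replicate 1, and at CR low without CR low replicate 3. Among the CR doses its mean was highest at the low one, 89.5 CPM, and CR high over low was -0.07 and not called. Between the high and low doses of CR, 3 of 10 members rose, namely SQSTM1, MAP1LC3B (log2 fold change 0.32, adjusted p = 2.21e-05) and ULK1 (0.31, adjusted p = 1.70e-06), where 25.4% of all genes tested were called, 13.1% higher and 12.3% lower.

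The stretches before the annotated starts of the 4 members other than BECN1 that were called at every dose of CR are shown to set their base composition and motifs side by side. Each line gives 100 bases from RefSeq (GRCh38.p14), read in the direction of transcription up to the base before the start, with capitals for matches on either strand to the GC box GGGCGG and to the antioxidant response element core TGACNNNGC, the motif NRF2 is known to bind. They are chr5:179820805-179820904 for SQSTM1 (the most downstream of its 3 starts), chr16:87392236-87392335 for MAP1LC3B, chr12:131894522-131894621 for ULK1 and chr12:10212777-10212876 for GABARAPL1, all on the plus strand.
SQSTM1: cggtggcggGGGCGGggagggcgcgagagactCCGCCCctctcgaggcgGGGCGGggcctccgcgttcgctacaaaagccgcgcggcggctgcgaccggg
MAP1LC3B: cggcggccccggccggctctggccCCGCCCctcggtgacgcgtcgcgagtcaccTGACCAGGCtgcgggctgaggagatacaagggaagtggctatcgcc
ULK1: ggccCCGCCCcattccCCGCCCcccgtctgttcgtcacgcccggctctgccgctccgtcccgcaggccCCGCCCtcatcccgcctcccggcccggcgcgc
GABARAPL1: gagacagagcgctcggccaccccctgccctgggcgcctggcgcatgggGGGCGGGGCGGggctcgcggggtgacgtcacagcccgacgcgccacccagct

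All 4 stretches hold a GC box, on the forward strand at -91 and -51 and the reverse strand at -68 in SQSTM1, on the reverse strand at -76 in MAP1LC3B and at -96, -84 and -32 in ULK1, and as 2 overlapping forward copies at -52 and -47 in GABARAPL1 (positions of the first base, counted back from the start). The gene that fell and the 3 that rose are thus alike in this letter pattern. In windows of 300 bases (250 before to 50 after the start), GGGCGG was found in 12 of 14 promoters of the 9 members with an entry, and in 45.0% of 35116 RefSeq promoters. TGACNNNGC was found for MAP1LC3B alone among those 9 members (1 of 14 promoters, at -46), and in 13.3% of all promoters. CACGTG, the E-box core of the CLEAR motif, was in 0 of 14, against 7.26% of all, and TGATGNAAT, the CEBP-ATF response element, in 0 of 14, against 0.991% of all. CCAAT was in 3 of 14, those of ATG5, BECN1 and WIPI1, against 34.6% of all. Absence of a match says only that these letters are not in this window.

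SR was followed by a rise of 5 of 10 members at its high dose: SQSTM1, MAP1LC3B, ULK1, WIPI1 and BECN1, with 0 lower, where 23.9% of all genes tested were called (13% higher, 10.9% lower). WIPI1, which binds PI3P at the forming membrane, showed the largest log2 fold change of any member against vehicle in the comparisons run here. It had 7.92, 7.60 and 8.14 CPM at SR high, against 4.36, 3.73 and 4.39 CPM in vehicle (log2 fold change 0.93 ± 0.141, adjusted p = 1.11e-06, edgeR). SR low libraries had 3.34, 4.73 and 4.13 CPM and SR medium libraries 3.01, 4.41 and 4.89 CPM, both overlapping vehicle, so the high dose stood alone. High over low gave 0.94 ± 0.141 (adjusted p = 8.81e-07).

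MAP1LC3B had 95.2, 86.5 and 97.4 CPM at SR high, against 65.8, 67.3 and 69.9 CPM in vehicle (log2 fold change 0.46 ± 0.0576, adjusted p = 1.48e-08), and ULK1 had 154, 161 and 154 CPM, against 121, 119 and 121 CPM (0.37 ± 0.0489, adjusted p = 4.10e-08). BECN1 had 93.1, 92.8 and 99.5 CPM at SR high, against 76.9, 76.3 and 81.5 CPM in vehicle (0.28 ± 0.0510, adjusted p = 2.50e-05). For each of the 3, all SR high libraries were above all vehicle libraries. Against SR low the same 5 genes rose (MAP1LC3B 0.37, ULK1 0.31, BECN1 0.22, adjusted p = 1.93e-06, 1.97e-06 and 1.16e-03), where 20.4% of all genes were called, 11.1% higher and 9.36% lower. These counts were 5 in each fit that left out a library. The medium and low doses of SR called 0 members, with 0 at an unadjusted p under 0.05 in either (edgeR), and 0.0% and 0.00584% of all genes. GABARAPL1 did not follow CR here, with 29.4, 31.7 and 29.8 CPM at SR high, against 30.2, 30.1 and 32.3 CPM in vehicle (log2 fold change -0.02). RRAGD had 2.59, 2.22 and 2.38 CPM at SR high, against 1.79, 1.61 and 1.76 CPM, groups that did not overlap, and missed the threshold (0.48 ± 0.190, adjusted p = 0.0589).

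Several of these genes share exon bases with genes on the opposite strand, and no source used here says whether the counting kept strands apart. SQSTM1 shares 1582 bases with MRNIP (median 35.4 CPM), which rose by 0.45 at CR high and 0.21 at SR high on the log2 scale (adjusted p = 1.04e-06 and 0.0230). WIPI1 shares 828 bases with ARSG (median 1.35 CPM), which rose by 0.61 at SR high (adjusted p = 0.0289). BECN1 shares 300 bases with PSME3 (median 345 CPM), which fell by 0.21 at SR high (adjusted p = 2.84e-05), the direction opposite to BECN1. It also shares 795 bases with CNTD1 (median 3.52 CPM), which gave 0.02 at SR high and -0.20 at CR high and was not called. SQSTM1 shares a further 105 bases with MGAT4B, which rose by 0.19 at SR high and 0.16 at CR high (adjusted p = 0.0205 and 0.0427). MAP1LC3B shares 150 bases with FBXO31, which gave 0.07 and 0.08 at SR and CR high and was not called. The part of these neighbours in the members' values was not tested. The copies MAP1LC3BP1, GABARAPL3, SQSTM1P1 and BECN1P2 were at 0 in each library, and MAP1LC3B2 had a median of 0.381 CPM, far below MAP1LC3B.

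Wortmannin moved 2 of the 10 members, WIPI1 and RRAGD, both upward, where 25.3% of all genes tested were called (13.4% higher, 11.9% lower). WIPI1 had 5.35, 6.56 and 6.36 CPM with wortmannin, against 4.36, 3.73 and 4.39 CPM in vehicle (log2 fold change 0.55 ± 0.143, adjusted p = 2.62e-03, edgeR). RRAGD, a Rag GTPase that recruits mTORC1 to the lysosome, had 2.78, 2.67 and 2.78 CPM with wortmannin, against 1.79, 1.61 and 1.76 CPM in vehicle (0.68 ± 0.185, adjusted p = 4.55e-03). Both groups lay apart from vehicle, and for RRAGD the wortmannin group was the highest of all 20. Each call was kept when any of the 6 libraries was left out. Both genes are scarce (under 7 CPM), and folds of scarce genes are the least precise here. ARSG, the antisense neighbour of WIPI1, gave 0.46 and was not called (adjusted p = 0.103).

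The other 8 members did not pass with wortmannin, and their log2 fold changes lay between -0.12 for ATG5 and 0.19 for TFEB. ULK1 had 122, 108 and 116 CPM with wortmannin, against 121, 119 and 121 CPM in vehicle (-0.06, 95% interval -0.16 to 0.04). MAP1LC3B had 64.8, 65.6 and 68.2 CPM, against 65.8, 67.3 and 69.9 CPM (-0.03, 95% interval -0.15 to 0.09). The log2 fold changes of these genes at CR high lie outside both intervals. Because wortmannin and the extracts share the vehicle libraries, the values are set side by side only.

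**Figure D3:**
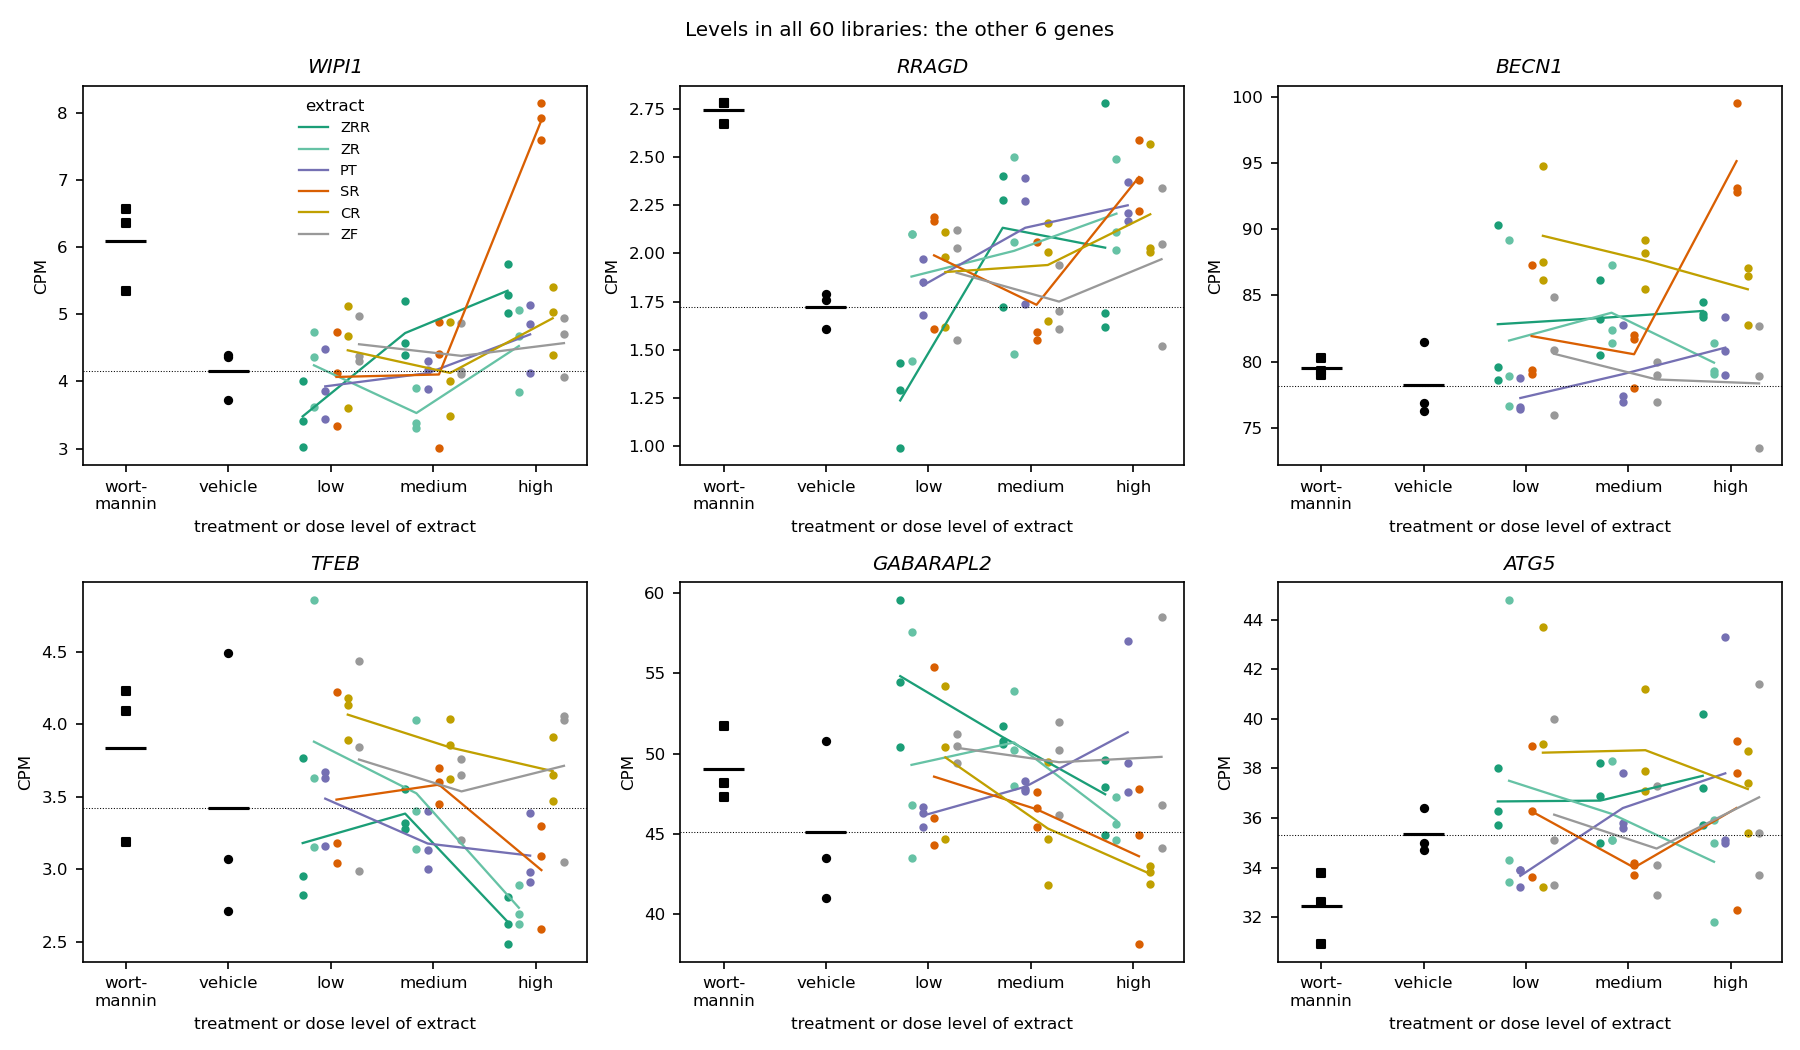
CPM of WIPI1, RRAGD, BECN1, TFEB, GABARAPL2 and ATG5 in every library, drawn as in the plot of SQSTM1; the axes do not start at 0. For WIPI1 the 3 SR high libraries (7.60 to 8.14 CPM) lie above every other library, and for RRAGD the wortmannin libraries lie at 2.67 to 2.78 CPM.

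Both gingers at 500 µg/mL raised 1 of 10 members, SQSTM1, where 4.03% of all genes were called for ZRR and 5.35% for ZR. At 100 µg/mL each again called SQSTM1 alone, with 0.28% and 0.922% of all genes called, and at 20 µg/mL 0 members were called in edgeR (0.111% and 0.00584%), with 3 for ZRR and 1 for ZR at an unadjusted p under 0.05. For high against low, ZRR called 3 members (4.17% of all genes): SQSTM1, WIPI1 and RRAGD. WIPI1 had 5.75, 5.28 and 5.02 CPM at ZRR high, against 3.41, 3.02 and 4.01 CPM at ZRR low (log2 fold change 0.62 ± 0.152, adjusted p = 9.30e-03). RRAGD had 2.78, 1.69 and 1.62 CPM, against 1.43, 0.99 and 1.29 CPM (0.71 ± 0.209, adjusted p = 0.0400). The ZRR low libraries were the lowest group of all 20 for both genes, and for RRAGD they lay below vehicle (log2 fold change -0.47, adjusted p = 0.252), and ZRR high overlapped vehicle for RRAGD. Without ZRR high replicate 1 or ZRR low replicate 2, WIPI1 (adjusted p = 0.0626 and 0.0899) and RRAGD (adjusted p = 0.423 and 0.243) were not called, and RRAGD was also lost without ZRR low replicate 3 (adjusted p = 0.0850), without the filter (adjusted p = 0.0946) and in DESeq2 (adjusted p = 0.0510). ZR high against low called SQSTM1 alone (4.64% of all genes).

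Compared with each other at matched doses, the gingers differed in 0 members at the high, medium and low dose and in 0 members in the test of whether the dose effect differed. Over all genes tested the 4 comparisons called 0.712%, 0.00584%, 0.0% and 0.14%. At an unadjusted p under 0.05 there were 0, 1 and 2 members at high, medium and low dose and 1 in the test of dose effects (edgeR), and DESeq2 called 0 members in each at its adjusted p. These were WIPI1 at the medium dose (log2 fold change of ZRR over ZR 0.42 ± 0.154, adjusted p = 1.00), GABARAPL1 and RRAGD at the low dose (0.18 ± 0.0726 and -0.60 ± 0.210, adjusted p = 0.998 for each) and WIPI1 in the dose effect (0.53 ± 0.213, adjusted p = 0.688). For SQSTM1 at 500 µg/mL the log2 fold change of ZRR over ZR was -0.03, with a 95% interval of -0.14 to 0.08. A p over the threshold does not show that the gingers act alike, and for WIPI1 at that dose the interval ran from -0.05 to 0.54.

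PT at 500 µg/mL also called SQSTM1 alone, with 1.4% of all genes called. ULK1 had 134, 135 and 133 CPM at PT high, against 121, 119 and 121 CPM in vehicle, groups that did not overlap, and missed the threshold (log2 fold change 0.15 ± 0.0488, adjusted p = 0.108). PT high libraries also had a low mean slope on transcript length (0.232, against 0.324 in vehicle). That mean was drawn down mostly by PT high replicate 2 (0.142), while replicates 1 and 3 had 0.278 and 0.2768. Lower means were found at CR low (0.195), ZR medium (0.199), ZRR low (0.22) and ZRR medium (0.23). Over 12465 genes the log2 fold change ran against transcript length at ZF high (Spearman rho -0.547, a description across genes) and likewise at PT high (-0.546). With the length slope as a covariate ULK1 was called (0.21, adjusted p = 1.87e-04, edgeR), where 334 of 17129 genes were called. It was also called without the 3 libraries of lowest slope, an alternative chosen after seeing the data (adjusted p = 0.0332, 723 of 17392 genes called). Those 3 libraries are ZR low replicate 3, ZF high replicate 2 and CR low replicate 3. As they are neither PT high nor vehicle libraries, that fit cannot test the slope of PT high. PT high against low called SQSTM1 alone (0.549% of all genes), and PT at 100 and 20 µg/mL called 0 members in edgeR (0.0175% and 0.0%), with 1 and 0 at an unadjusted p under 0.05.

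ZF called 0 members at 500, 100 and 20 µg/mL against vehicle and 0 for high against low, where 0.00584%, 0.0117%, 0.0117% and 0.0% of all genes were called. At an unadjusted p under 0.05 these held 0, 1, 0 and 0 members (edgeR), and DESeq2 called 0 at the high dose and 0 for high against low. At 500 µg/mL the log2 fold changes of the 10 members over vehicle lay between -0.08 for GABARAPL1 and 0.20 for RRAGD. For SQSTM1 the 95% interval was -0.01 to 0.20, and for ULK1 -0.02 to 0.17. The log2 fold changes at CR high lie outside both. They have an error of their own, share the vehicle libraries and belong to another dose, so the values are set side by side only.

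TFEB, the transcription factor of the axis, was called in 0 comparisons between 2 groups or 2 dose effects and in both tests over many groups (adjusted p = 0.0304 over 20 groups, 0.0232 over the 6 high doses). The first was lost without the libraries numbered 1 or 3, and the second without replicate 1 of ZRR, CR or ZF high or replicate 2 of ZF high. Its means were lowest at ZRR high (2.63 CPM) and ZR high (2.73 CPM) and highest at CR low (4.07 CPM), against 3.42 CPM in vehicle, whose 3 libraries had 3.07, 2.71 and 4.49 CPM. For ZR high over low the value was -0.50 ± 0.157 with libraries of 2.62, 2.69 and 2.89 CPM, against 3.63, 3.15 and 4.86 CPM, which did not overlap (adjusted p = 0.0556). ATG5, needed to attach lipid to the ATG8 proteins, and GABARAPL2, an ATG8 protein also known for work at the Golgi, were called in 0 of these comparisons too. ATG5 group means spanned 32.4 CPM with wortmannin to 38.7 CPM at CR medium, and those of GABARAPL2 42.5 CPM at CR high to 54.8 CPM at ZRR low, with neighbouring groups overlapping throughout. For GABARAPL2 at CR high over low (42.6, 41.9 and 43.0 CPM, against 50.4, 44.7 and 54.2 CPM) the value was -0.23 and not called, but it was called in DESeq2 (adjusted p = 0.0474), without the filter (adjusted p = 0.0190) and with only those 6 libraries (adjusted p = 0.0308).

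The wider pathway was read from 8 lists of 91 genes, of which 89 were tested; MAP1LC3C and TFEC did not pass the filter. Without the 10 members, 17 rose and 11 fell of 79 with wortmannin, 26 rose and 6 fell at SR high, and 15 rose and 14 fell at CR high, beside medians of 0.03, 0.06 and -0.02 in log2 fold change over these lists and 0.01, 0.01 and 0.01 over all genes tested. Of all genes tested, 13.4% rose and 11.9% fell with wortmannin, 13% rose and 10.9% fell at SR high, and 18.5% rose and 16.7% fell at CR high, and these shares are the background of the list counts that follow. At 500 µg/mL 1 of those 79 rose with ZRR, 4 with ZR, 4 with PT and 0 with ZF, and 0 fell in each. Of all 17129 genes tested, 386 rose and 304 fell with ZRR and 498 rose and 418 fell with ZR at that dose. With PT 184 rose and 56 fell, and with ZF 1 rose and 0 fell.

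Lysosomal genes with CLEAR motifs, the known targets of TFEB, gave the following counts in the 3 treatments with the most calls. With wortmannin 9 of 24 rose and 1 fell, where 13.4% of all genes tested rose and 11.9% fell. Among those that rose were GAA and TPP1, which encode lysosomal acid alpha-glucosidase and tripeptidyl peptidase. GAA averaged 87.6 ± 4.43 CPM with wortmannin and 56.4 ± 2.05 CPM in vehicle (SD, n = 3 each; log2 fold change 0.63, adjusted p = 8.02e-13 in edgeR), and TPP1 83.7 ± 1.98 and 57.9 ± 1.34 CPM (0.53, adjusted p = 4.47e-06 in edgeR). At SR high 9 rose and 4 fell (13% and 10.9% of all genes), with NEU1, lysosomal sialidase, at 20.5 CPM, against 13.1 CPM in vehicle (0.65, adjusted p = 5.41e-09). At CR high 3 rose and 9 fell against vehicle (18.5% and 16.7% of all genes), and 0 rose and 12 fell against CR low (13.1% and 12.3% of all genes), beside a median of -0.16 over the list and 0.01 over all genes for CR high against low. VPS18, a subunit of complexes that tether membranes for fusion with the lysosome, averaged 22.0 CPM at CR high and 29.6 CPM in vehicle (-0.43, adjusted p = 3.05e-10), and ATP6V0D1, a subunit of the lysosomal proton pump, 40.2 CPM at CR high and 53.2 CPM at CR low (-0.40, adjusted p = 2.47e-04). With the length slope as covariate the count against CR low was 1 higher and 10 lower.

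Of 13 cargo receptors, SQSTM1 included, 6 rose and 1 fell at SR high, and 6 rose and 1 fell at CR high, where 13% and 18.5% of all genes tested rose. BNIP3L and OPTN, receptors for mitochondria, averaged 68.0 and 34.1 CPM at SR high, against 45.3 and 22.8 CPM in vehicle (log2 fold change 0.59 and 0.58, adjusted p = 9.78e-14 and 5.07e-11). CCPG1, a receptor for endoplasmic reticulum, averaged 119 CPM at CR high and 79.0 CPM in vehicle (0.60, adjusted p = 5.06e-15). CALCOCO2, which targets bacteria and mitochondria, averaged 131 CPM at CR high and 100.2 CPM in vehicle (0.39, adjusted p = 1.61e-11). With wortmannin 3 rose, BNIP3L among them (0.32, adjusted p = 1.28e-06), and 1 fell.

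Among 6 ATG8-family genes tested, wortmannin raised MAP1LC3A, to 8.42 CPM, against 4.74 CPM in vehicle (log2 fold change 0.84, adjusted p = 4.74e-05), and GABARAP (0.29, adjusted p = 0.0144), neither of them among the 10 members. Of 15 tested genes for MiT/TFE factors and their Rag-folliculin control, 5 rose and 0 fell at SR high, with FLCN, a GTPase activator for RRAGC and RRAGD, at 37.3 CPM, against 27.0 CPM in vehicle (0.46, adjusted p = 5.66e-09), and MITF, a relative of TFEB (0.40, adjusted p = 2.45e-05). With wortmannin FLCN and RRAGC were among the 3 that fell (-0.28 for each, adjusted p = 2.17e-04 and 1.65e-03), and 2 rose. At CR high TFE3, another relative of TFEB, rose to 115 CPM, against 90.5 CPM in vehicle (0.34, adjusted p = 3.53e-10), and 1 gene fell, FNIP2.

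Upstream of the ATG8 proteins, 3 of 5 initiation genes rose at SR high (ULK1, ATG13 and ULK2) and 2 of 5 at CR high (ULK1 and ULK2), with 0 lower in either, where 13% and 18.5% of all genes tested rose. Wortmannin raised ULK2 (0.32, adjusted p = 1.56e-04) and lowered RB1CC1 (-0.21, adjusted p = 8.49e-03), which encodes FIP200. Of 8 genes in the class III PI3-kinase list, 1 rose and 1 fell with wortmannin, and 2 rose and 1 fell at SR high and at CR high. PIK3C3, the catalytic subunit, was the 1 that rose with wortmannin (0.28, adjusted p = 7.27e-03). PIK3R4, its regulatory partner, fell at SR high (-0.48, adjusted p = 3.85e-05) and at CR high (-0.53, adjusted p = 3.11e-06), where BECN1 of the same complex was called higher. Of 8 genes in the list of PI3P effectors and lipid transfer, 3 rose and 0 fell at SR high, and 2 rose and 2 fell at CR high. With wortmannin 1 rose and 2 fell. WDR45, which encodes the WIPI4 protein, rose at SR high (0.63, adjusted p = 9.33e-09) and at CR high (0.72, adjusted p = 5.88e-11). In the conjugation list 2 of 10 rose at SR high and 2 at CR high, close to those shares of all genes, among them, at CR high, ATG7, the enzyme that activates ATG8 proteins (0.42, adjusted p = 6.27e-06), and 2 fell with wortmannin, ATG16L1 and ATG12.

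**Figure D4:**
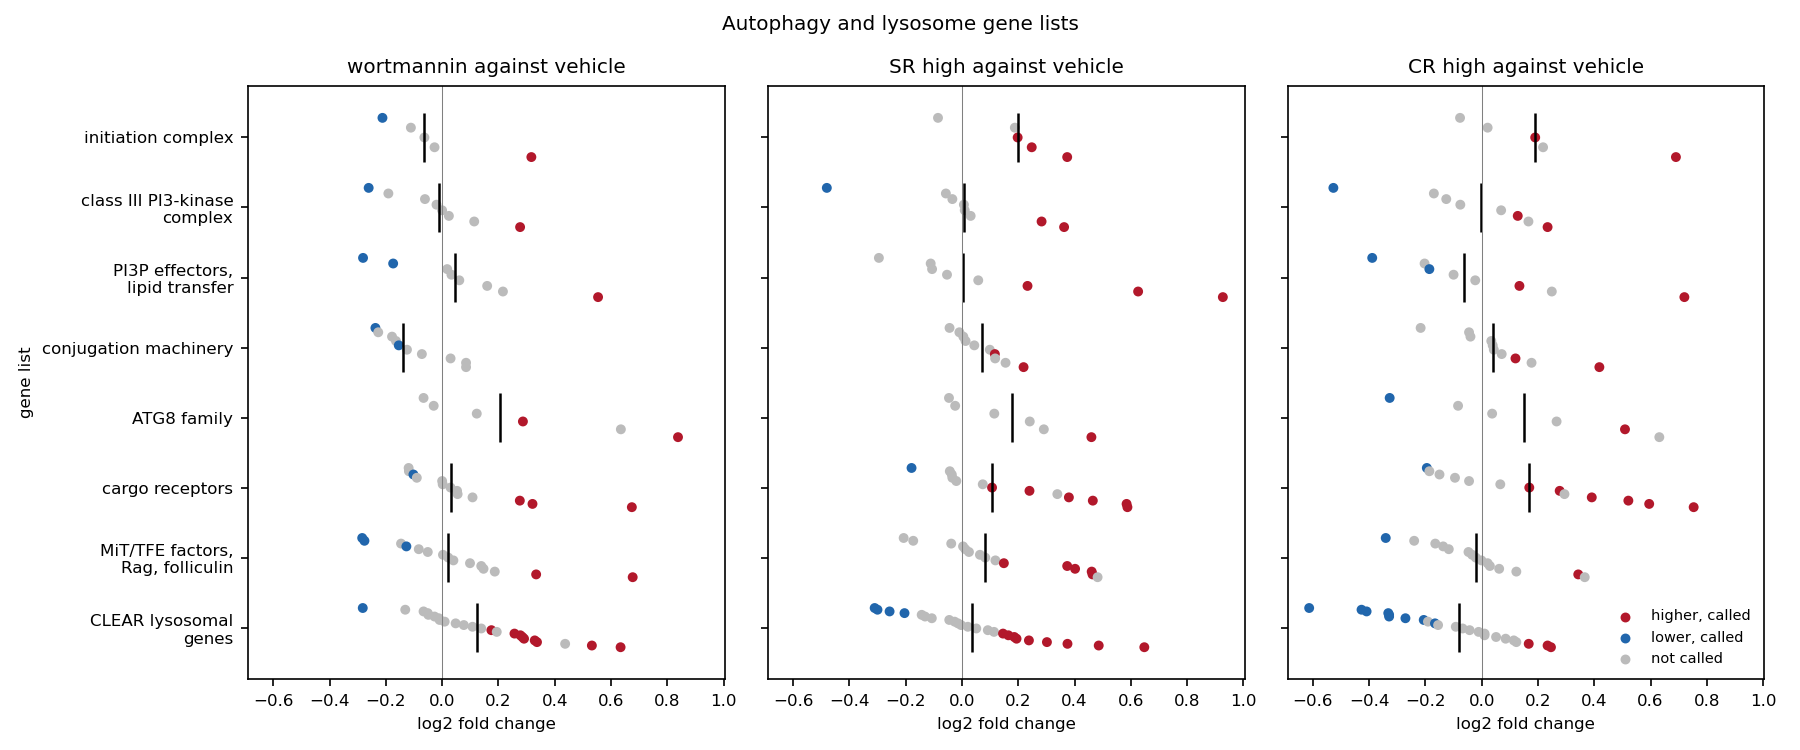
Log2 fold changes over vehicle of the 89 tested genes of 8 autophagy and lysosome lists with wortmannin (left), SR high (middle) and CR high (right). Each point is a gene, red where called higher, blue where called lower and grey where not called, and black bars mark the list medians; the CLEAR lysosomal genes have 9 red and 1 blue point with wortmannin, 9 and 4 at SR high, and 3 and 9 at CR high.

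Across the 20 group means of log2 CPM, which carry the length gradient of their libraries, SQSTM1 ran with MAP1LC3B (Pearson r 0.894) and ULK1 (0.811), and MAP1LC3B with ULK1 (0.898). GABARAPL1 ran against ULK1 (-0.776) and SQSTM1 (-0.699), and WIPI1 with RRAGD (0.696). TFEB gave -0.0522 with its target RRAGD and 0.208 with ULK1. These values describe 20 groups and carry no test. Over 12384 genes compared, the profiles most like that of SQSTM1 were TMEM156 (0.973), TRIM65 (0.952) and HMGN4 (0.951). Those most like ULK1 were SOX12 (0.968), KCNG1 (0.963) and IRF2BPL (0.958), those most like GABARAPL1 were EXOC8 (0.911), MAP2K6 (0.866) and OAS1 (0.859), and those most like RRAGD were SNX10 (0.825), SEC14L2 (0.780) and NLRC5 (0.771).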

How the data were processed

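RNA of 60 A549 libraries (3 in each of 20 groups, taken from the sample labels) was sequenced as paired reads of 100 bases. Per the submitters' processing notes, the genome was GRCh38 and the tools named are STAR 2.7.3a, RSEM 1.3.3, Trim Galore 0.6.5 and FastQC 0.11.9. The sources used here state neither the annotation release nor the strand setting. The deposited table holds estimated counts per gene, not normalized by the authors as far as the values show. The 209 columns of that table that match no sample here were not used.

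Estimated counts were rounded and tested in edgeR 4.0.16 (R 4.3.3; TMM, filterByExpr, quasi-likelihood test) with 1 term per group over all 60 libraries and 40 residual degrees of freedom. Benjamini-Hochberg adjustment ran over 17129 genes in each of 31 comparisons, with an adjusted p under 0.05 as the threshold. Depth was 17420400 to 36479600 estimated counts per library. Symbols came from the reference gene table and, for IDs absent there, GENCODE 29. SE was the log2 fold change divided by the square root of F.

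Alternatives were DESeq2 1.42.0 and its size factors, no filter, a replicate block, the length slope as covariate, only the groups compared, each library left out, and, added after seeing the data, leaving out the 3 libraries of lowest length slope. Scripts were tested on simulated counts. All members were described; the other genes named are, per list and comparison, the 2 called ones of smallest p and paralogs of members (1 such gene is not reported here), and likeness was Pearson's r over group means. The members, lists and tests were chosen with earlier results of these data known.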

Additional observations from a re-analysis of the deposited data

How the results depend on the processing

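Over the 130 values of 10 members in 13 comparisons, the side of the threshold was kept in 127 by DESeq2, 129 by its size factors in edgeR, 127 when low counts were not filtered, 129 under the replicate block, 120 when length slope was a covariate, 120 when only the groups compared were fitted, and 128 without the 3 libraries of lowest length slope. With 1 library left out, 766 of 780 kept their side, 12 lost the threshold and 2 gained it. No called value changed sign in these, but values not called did, in 1 case each for DESeq2, its size factors and no filter, 12 for the length slope, 14 without those 3 libraries and 57 with 1 library left out. Replicate numbers did not pair the libraries (mean correlation of deviations -0.00599, over 0.1 in 169 of 570 pairs, 14 of 60 libraries closest to their own number), and the replicate block moved the count for ZR high against low to 2 (TFEB added, adjusted p = 0.0499). With the length slope as covariate, members called were 3 for ZR high and 2 for PT high against vehicle, 5 for ZRR high against low and 3 over the 6 low doses, where 1, 1, 3 and 5 were called otherwise. Calls over all 17129 genes moved the same way. They were 2067, 334 and 1456 in the first 3 of these, against 916, 240 and 715 otherwise. For CR low against vehicle they were 2240, against 3024 otherwise. GABARAPL2 was then called with wortmannin (log2 fold change 0.15) and at SR high and CR high (-0.14 and -0.15 in log2 fold change), and at CR medium with its sign changed. With only the groups compared, members called were 2 for ZRR high and 2 for ZR high and 0 for PT high against vehicle, and 0 for ZRR, 0 for ZR and 0 for PT high against low. Calls over all genes were then 1075 of 15307, 1166 of 15498 and 26 of 15616 against vehicle. For high against low they were 114 of 15298, 64 of 15403 and 26 of 15665. Without the 3 libraries of lowest length slope, which are neither PT high nor vehicle libraries, PT high against vehicle called 2 (723 of 17392 genes, against 240 of 17129 otherwise). With 1 library left out, counts ranged from 1 to 3 for ZRR, 1 to 2 for ZR and 0 to 1 for PT high against low, 4 to 7 over the 6 medium doses and 3 to 6 over the 6 low doses. Calls over all genes in those fits are not given here, so these ranges cannot be read as particular to the members. RRAGD at SR high was called with the length slope, with only the groups compared and without those 3 libraries (adjusted p = 0.0421, 0.0457 and 0.0497, edgeR). Those 3 are not SR high or vehicle libraries either. The cause of these changes was not tested. WIPI1, TFEB and RRAGD, the least abundant members, had the largest median coefficients of variation (10.5%, 8.39% and 15.2%), and what depth adds to this was not tested.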
